A study of Mus musculus with 26 samples.

Results

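The genes described are 48 mouse genes that carry proteins into the endoplasmic reticulum (ER) and between the ER and the Golgi. They are 48 of the 55401 genes in a table of liver RNA-seq counts. The set holds 10 genes of the translocon, 5 of the signal peptidase, 13 of the COPII coat and its helpers, 7 of the COPI coat and 13 cargo receptors. The list was chosen by pathway, and it was chosen from a comparison whose results were already known, that of exosome-treated with untreated mice. Fold changes and calls of its members in that comparison are therefore a description and are no independent evidence. All 48 genes were found in the table, and all 48 passed the filter on low counts.

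The livers came from male C57BL/6 mice that began a high-fat diet, which the series' design text calls high in fat and cholesterol, at 4 weeks of age and stayed on it for 18 weeks. In the untreated group, 9 libraries came from mice for which no injection is listed. In the UCMSC-Exos group, 8 libraries came from mice given UCMSC exosomes, small membrane vesicles, by tail vein every 72 hours for 8 weeks. Both groups ate the same diet, so no lean liver is part of the comparison. The exosomes and the injections themselves cannot be told apart, nor can anything else that separated the 2 groups. The series has 26 samples in 3 groups. The 9 samples of the third group, LSCR, were not analysed here. The labels plan 9 mice per group without tying each library to a mouse, so a p-value measures the spread between libraries, which may in part be technical.

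Proteins that leave a cell, or that live in its membranes, enter the ER through the Sec61 channel, where the signal peptidase removes the leader peptide. COPII-coated vesicles then carry them from ER exit sites towards the Golgi, and COPI-coated vesicles bring escaped ER residents and the transport machinery back. Transmembrane cargo receptors link soluble proteins in the lumen to these coats. Hepatocytes secrete most plasma proteins and the lipoproteins, so the pathway is busy in the liver. Several of its genes are known targets of the unfolded protein response, in which the factors XBP1 and ATF6 bind short promoter elements.

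Promoter windows from RefSeq on GRCm38.p6, each from 250 bases before to 50 bases after a transcription start, were matched by symbol to 38 of the 48 genes, in 41 windows. The windows were searched on both strands for 4 elements. The core TGACGTGG, bound by XBP1 and ATF6, was found in 6 of 41 windows (14.6%), those of Copb1, Copb2, Kdelr3, Sec16b, Sec23a and Sec24d. It was found in 0.676% of all 32851 windows, and in 0.914% of the 11374 windows whose GC content was at least the members' median of 58.0%. The ER stress response element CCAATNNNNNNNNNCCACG was in 0 of 41 windows and 0.119% of all windows, and the element ATTGGNCCACG was in 0 of 41 and 0.0365%. The cyclic AMP element TGACGTCA, which shares its first 6 bases with the core, was in 1 member window, that of Cope (2.44%), and in 1.79% of all. A match is a description of letters and not of a bound site.

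The 6 stretches with the core are shown because they place the same letters beside genes of both coats and 1 receptor. They were picked after the matches were seen. Each is 100 bases of GRCm38.p6, read 5′ to 3′ on the gene's strand, with the core or its reverse complement in capitals.
Sec16b: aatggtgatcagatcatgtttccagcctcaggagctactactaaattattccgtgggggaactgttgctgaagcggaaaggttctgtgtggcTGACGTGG
Sec23a: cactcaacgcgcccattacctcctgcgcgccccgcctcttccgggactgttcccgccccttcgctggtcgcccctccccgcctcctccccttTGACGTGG
Sec24d: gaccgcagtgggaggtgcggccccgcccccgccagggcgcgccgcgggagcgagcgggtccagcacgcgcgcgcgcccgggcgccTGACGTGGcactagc
Copb1: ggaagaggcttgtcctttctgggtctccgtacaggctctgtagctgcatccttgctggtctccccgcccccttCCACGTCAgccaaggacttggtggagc
Copb2: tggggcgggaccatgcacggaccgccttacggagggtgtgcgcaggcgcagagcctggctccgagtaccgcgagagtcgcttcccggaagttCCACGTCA
Kdelr3: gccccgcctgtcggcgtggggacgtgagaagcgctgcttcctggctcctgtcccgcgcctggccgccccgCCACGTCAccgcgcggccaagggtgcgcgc

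The Sec16b stretch is chr1:157506660-157506759 (+ strand), and its core lies 44 to 37 bases before the RefSeq start. That of Sec23a is chr12:59012004-59012103 (− strand), with the core 7 to 14 bases into the transcript. The Sec24d stretch is chr3:123267385-123267484 (+), and the core lies 26 to 19 bases before the start. For Copb1 it is chr7:114254682-114254781 (−), with the core 28 to 21 bases before the start. The Copb2 stretch is chr9:98563632-98563731 (+), and its core runs from 7 bases before the start to base 1 of the transcript. That of Kdelr3 is chr15:79516308-79516407 (+), with the core 30 to 23 bases before the start. All these positions are relative to the RefSeq start. The annotation used for counting starts Sec16b, Sec24d, Copb1 and Copb2 further upstream, so there the core lies inside the gene, as it does for Sec23a. Only the core of Kdelr3 lies before the start in both. In the comparison of treated with untreated livers described below, Sec16b and Sec23a rose. Copb1, Copb2, Kdelr3 and Sec24d did not pass the test.

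Depth was even, with 32941467 to 36065074 counted reads per library. Levels are given as CPM, counts scaled to a common library size, after scaling by TMM, the trimmed mean of M-values, which centres the bulk of genes across libraries. Untreated library 3 held pancreatic acinar transcripts at a summed 14788 CPM, against 8.28 to 16.6 CPM in the other untreated libraries, and untreated library 9 held muscle transcripts at 9739 CPM. UCMSC-Exos library 9 lay among the untreated libraries in many measures, but not in its B, plasma, T and NK cell markers. Results are therefore also given without these libraries. Library 9 of the treated group was singled out on its values, so results without it are no independent check. A list of 8 hepatocyte markers summed to 34579 to 53955 CPM in untreated and 41934 to 78045 CPM in treated libraries, and 7 of the 8 rose, with Alb, the serum albumin gene, at the highest level. In bulk tissue, fewer cells of a type and less RNA per cell cannot be told apart.

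In treated livers, 19 of the 48 genes (39.6%) rose and 0 fell, by edgeR's quasi-likelihood test with Benjamini-Hochberg adjustment over all 16238 genes tested, at a threshold of 0.05. At an unadjusted p under 0.05, 30 genes were higher and 1 was lower. The background of the same test was 9.73% of genes higher and 10.4% lower. Most members are abundant, however, and among the 3432 genes with a mean of at least 50 CPM, a level chosen after the data were seen, 23.2% rose and 8.25% fell. Of the 42 members at that level, 18 rose (42.9%). The changes were small, from 0.20 to 0.47 on the log2 scale for the genes that rose, or 1.15-fold to 1.38-fold. Of all 48, 44 had a positive and 4 a negative log2 fold change, with a median of 0.21. The median was -0.02 over all genes tested and 0.11 over genes of at least 50 CPM. In 0 of the 48 genes were the 2 groups free of overlap, against 1.3% of all genes tested.

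**Figure D1:**
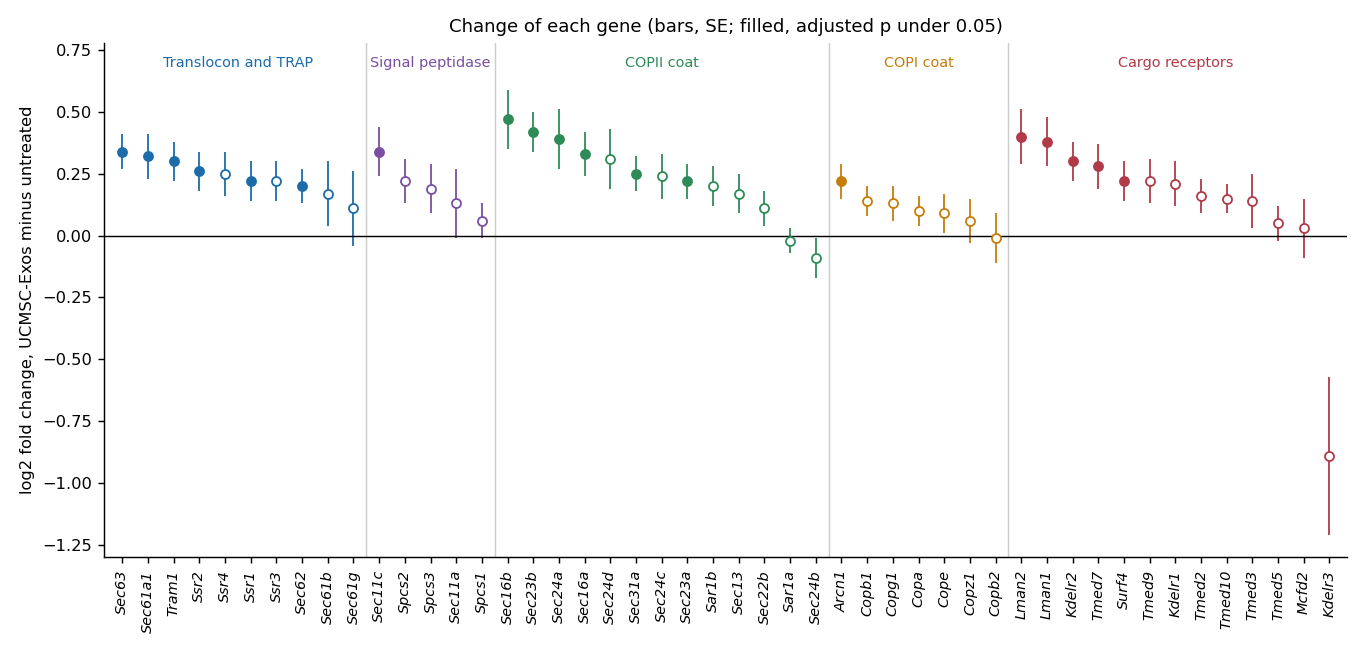
Log2 fold change (vertical axis; UCMSC-Exos minus untreated) of each of the 48 genes, by role, with bars of 1 SE; filled points passed the adjusted p threshold. The values of 44 genes lie above 0, the COPI genes have the lowest median of the roles (0.10), and Kdelr3 alone is far below 0 (-0.89).

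The size of these changes rested on the scaling between libraries. The TMM factors averaged 1.06 ± 0.0492 (SD, n = 9) in untreated and 0.943 ± 0.0994 (n = 8) in treated libraries. With libraries scaled to their total counts only, an alternative added after the data were seen, the median over all genes was -0.19 and that of the 48 genes was 0.04. Then 5 members rose (Sec63, Sec16b, Sec23b, Lman1 and Lman2) and 1 fell, Sar1a (-0.19, edgeR adjusted p = 0.0385), while 737 of all genes rose and 2961 fell in place of 1580 and 1694. The 48 genes together took 0.574% to 0.677% of all counts in untreated libraries and 0.594% to 0.693% in treated libraries, ranges that overlap almost wholly. What changes with the scaling is the zero line and not the order of the members, which stayed close to a straight line in the plot of both scalings.

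**Figure D2:**
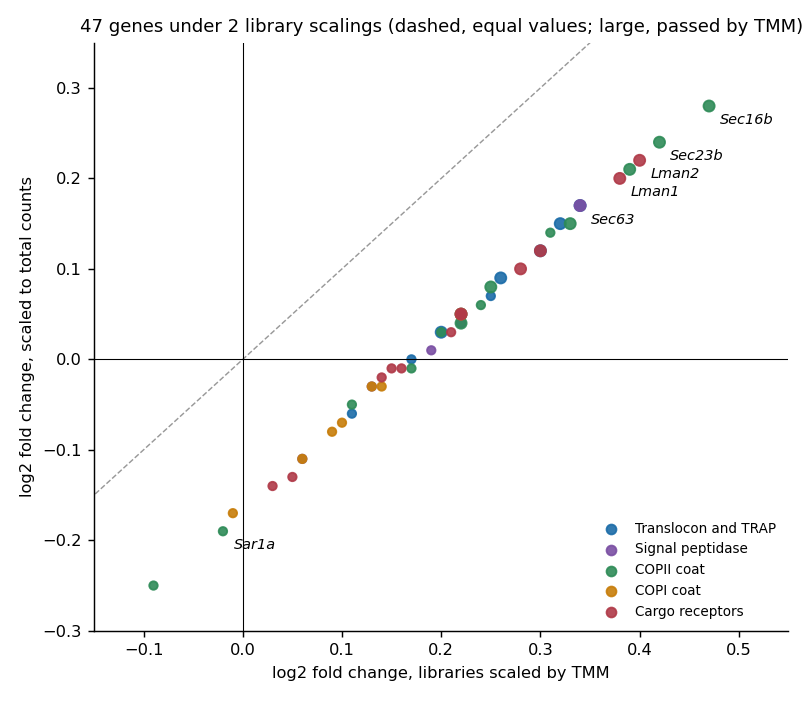
Log2 fold change of 47 genes (Kdelr3, far below the others, is left out) with TMM scaling (horizontal axis) and with scaling to total counts only (vertical axis); colours are the roles, large points passed the test under TMM, and names mark genes that passed under total counts. All points lie below the dashed line of equal values, and 5 named genes stay above 0 and past the threshold.

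Single libraries also moved the count. It was 29 without UCMSC-Exos library 9, where 15.1% of all genes tested rose, and 12 without untreated library 6, where 7.86% did. Among treated libraries it was 10 without library 1, 10 without library 2, 9 without library 3, 12 without library 5 and 12 without library 7. The share of all genes that rose in those fits was 6.68% to 7.7%. That share thus moved along with the count of members. The genes that rose in all 17 fits that each left out 1 library were Sec63, Tram1, Sec16a, Sec16b, Sec23b, Kdelr2, Lman1 and Lman2. Without untreated libraries 3 and 9, where 10.8% of all genes rose, the count was again 19 with a median of 0.19. Of these, 14 were shared with the full comparison. Arcn1, Sec11c, Sec23a, Ssr1 and Ssr2 then just missed the threshold (edgeR adjusted p = 0.0505 to 0.0687) with log2 fold changes of 0.17 to 0.31. Sar1b, Sec11a, Sec24d, Spcs3 and Tmed9 were then called. With 3 surrogate variables in the fit, 3 members rose (Sec11a, Sec23b and Sec63) and the median was 0.10. Of all genes, 4.27% rose there. Lman1 (0.14), Lman2 (0.11) and Sec24a (0.13) were among those that no longer passed there.

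The translocon genes code for the channel and its partners. Of the 10, 6 rose and the median log2 fold change was 0.23. Sec63, a membrane protein that recruits the chaperone BiP to the channel, spanned 128 to 167 CPM in untreated livers with a median of 156. In treated livers it spanned 160 to 212 CPM with a median of 191. All 8 treated libraries lay above the untreated median, and 7 of them lay above every untreated library. The log2 fold change was 0.34 ± 0.07 (SE; edgeR adjusted p = 0.00345), and it was 0.30 without untreated libraries 3 and 9.

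Sec61a1 codes for the pore itself. It had 129 to 184 CPM (median 156) in untreated and 152 to 233 CPM (median 197) in treated livers, and 6 of 8 treated libraries lay above every untreated library. Its rise was 0.32 ± 0.09 (log2, SE; edgeR adjusted p = 0.0208). The 2 small subunits did not pass: Sec61b had a log2 fold change of 0.17 ± 0.13 (SE) and Sec61g one of 0.11 ± 0.15, and both had their highest value in treated library 6. Tram1, a membrane protein beside the channel, ran from 94.4 to 138 CPM in untreated and from 113 to 154 CPM in treated livers (0.30 ± 0.08 on the log2 scale, edgeR adjusted p = 0.0156). Sec62, the partner of Sec63, was at the threshold (0.20 ± 0.07, edgeR adjusted p = 0.0498), passed in 2 of the 17 fits that left out 1 library, and had its highest untreated value, 172 CPM, in library 3.

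The 4 Ssr genes code for TRAP, the translocon-associated protein complex that helps some signal sequences open the channel. Ssr1 and Ssr2 rose, by 0.22 ± 0.08 and 0.26 ± 0.08 on the log2 scale. Ssr3 and Ssr4 had values of about the same size that did not pass (0.22 ± 0.08, edgeR adjusted p = 0.071, and 0.25 ± 0.09, edgeR adjusted p = 0.0679). Per length, Ssr3 was the most abundant translocon transcript in untreated livers, at 71.2 ± 6.75 RPKM (CPM per kilobase of exon; SD, n = 9). Sec61g was the lowest at 9.99 ± 1.89 RPKM. The length counts all annotated exons of a gene and not the transcript present, so rankings per length also depend on the annotation.

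In the signal peptidase, 1 of 5 genes rose and the median was 0.19. The enzyme has 2 alternative catalytic subunits, Sec11a and Sec11c. Sec11c had 19.8 to 27.9 CPM (median 24.6) in untreated and 23.8 to 42.9 CPM (median 29.5) in treated livers, a log2 fold change of 0.34 ± 0.10 (edgeR adjusted p = 0.0267). Sec11a lay between 47.4 and 53.9 CPM in 8 untreated libraries and at 108 CPM in library 3, and between 55.6 and 73.9 CPM in the treated libraries. With all libraries the 2 groups overlapped, and apart from library 3 they did not. Library 3 was set aside here after the values were seen. The share of all genes that separate without it was not counted. Its log2 fold change was 0.13 ± 0.14 with all libraries (edgeR adjusted p = 0.507) and 0.28 ± 0.06 without untreated libraries 3 and 9 (edgeR adjusted p = 0.00459). The accessory subunits Spcs1, Spcs2 and Spcs3 had log2 fold changes of 0.06, 0.22 and 0.19 and did not pass.

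The COPII genes included Sec16b and Sec23b, which had the largest positive log2 fold changes of the 48. Of the 13, 6 rose and the median was 0.24. Sec16a and Sec16b code for scaffolds that mark ER exit sites. Sec16b, the shorter form, ran from 68.1 to 123 CPM (median 105) in untreated and from 85.7 to 162 CPM (median 146) in treated livers. Its lowest untreated value came from library 3 and its lowest treated value from library 9, and the other 7 treated libraries lay above every untreated one. Its log2 fold change was 0.47 ± 0.12 (edgeR adjusted p = 0.0146), 0.37 without untreated libraries 3 and 9 and 0.55 without treated library 9, but 0.11 with 3 surrogate variables (edgeR adjusted p = 0.191). Sec16a went from 156 ± 17.5 CPM (SD, n = 9) to 195 ± 26.2 CPM (n = 8), a log2 fold change of 0.33 ± 0.09 (edgeR adjusted p = 0.0173).

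The inner coat pairs a Sec23 protein, which activates the GTPase of Sar1, with a Sec24 protein, which binds the cargo. Sec23b ran from 51.0 to 68.8 CPM (median 59.6) in untreated and from 62.4 to 89.6 CPM (median 84.8) in treated livers. Of the treated libraries, 6 lay at 81.1 CPM or above, clear of all untreated ones, and libraries 8 and 9 lay at 62.4 and 62.6 CPM, inside the untreated range. The log2 fold change was 0.42 ± 0.08 (edgeR adjusted p = 0.00266), the lowest adjusted p of the 48 genes. Sec23b and Sec63 were the 2 genes that kept their call in all 27 alternative fits. Sec23a rose too (0.22 ± 0.07, log2; edgeR adjusted p = 0.032).

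Sec24 is coded by 4 genes, of which a and b form 1 pair of close relatives and c and d the other. Sec24a ran from 63.0 to 128 CPM (median 115) in untreated and from 103 to 174 CPM (median 149) in treated livers. The log2 fold change of Sec24a was 0.39 ± 0.12 (edgeR adjusted p = 0.0292). Sec24b ran from 28.6 to 41.9 CPM (median 40.1) in untreated and from 32.3 to 46.1 CPM (median 35.7) in treated livers, and its log2 fold change was -0.09 ± 0.08 (edgeR adjusted p = 0.424). Without treated library 9, which held the 46.1 CPM, that of Sec24b was -0.15. Sec24c (0.24 ± 0.09) and Sec24d (0.31 ± 0.12) did not pass, at edgeR adjusted p = 0.0566 and 0.0638. Sec24d had 66.8 CPM in untreated library 3 and 113 to 155 CPM in the other untreated libraries.

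The ratio of 2 genes in 1 library does not depend on library scaling, so ratios were taken within 7 pairs of related members, picked after the values were seen and given with no test. The ratio of Sec24a to Sec24b was 2.2 to 3.28 in the 9 untreated libraries. In 7 of the 8 treated libraries it was 3.73 to 5.38, above every untreated library, and it was 2.24 in treated library 9. For Sec16b to Sec16a, 5 of 8 treated libraries lay above the untreated maximum of 0.721. For Sec23b to Sec23a it was 3 of 8, and for Sar1b to Sar1a 2 of 8, although 7 of 8 lay above the untreated median in both. For Kdelr2 to Kdelr1, 0 of 8 lay above the untreated maximum of 1.48, which was the value of library 3. For Sec24d to Sec24c it was 2 of 8, and for Sec11c to Sec11a 3 of 8. The median ratio of Sec11c to Sec11a was 0.459 in untreated and 0.454 in treated libraries. Of the treated libraries, 4 of 8 lay above that untreated median. In all 7 pairs the groups overlapped, for Sec24a to Sec24b only through treated library 9. How often other pairs of genes come as close to separation was not counted.

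**Figure D3:**
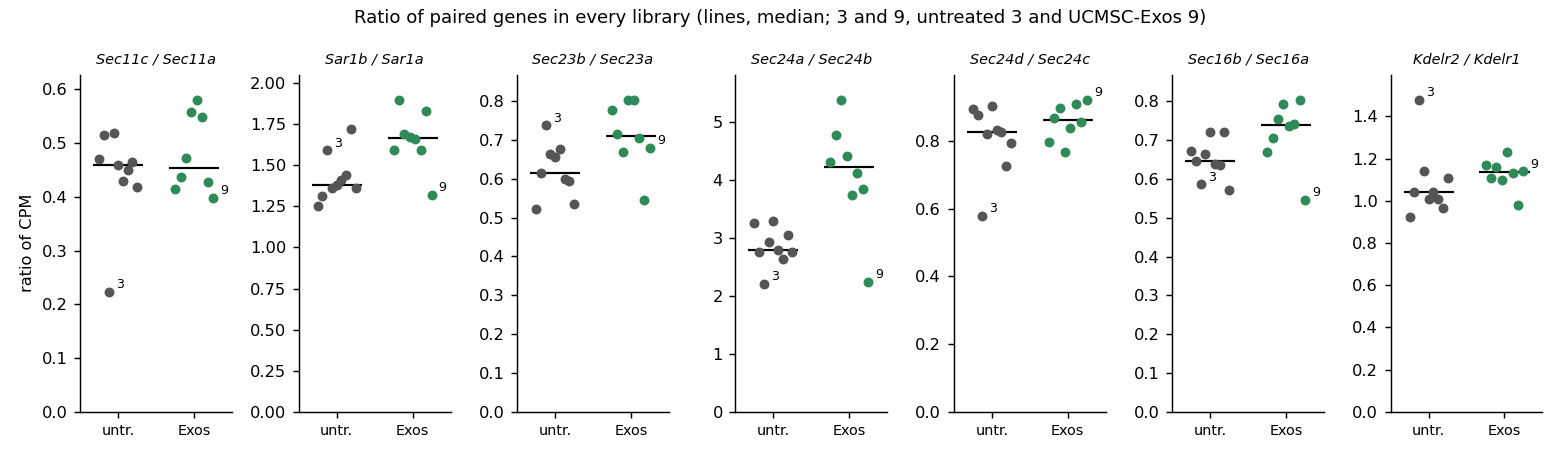
Ratio of CPM (vertical axis) of 7 pairs of related genes in every untreated (grey) and UCMSC-Exos (green) library, with lines at the medians and the values of untreated library 3 and treated library 9 numbered. The Sec24a to Sec24b ratio lies at 3.73 or above in 7 of 8 treated libraries and at 3.28 or below in all untreated libraries.

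Sar1 is the GTPase that starts the COPII coat. Sar1b, the form needed for chylomicron export in the gut, ran from 164 to 210 CPM in untreated and from 158 to 241 CPM in treated livers (log2 fold change 0.20 ± 0.08, edgeR adjusted p = 0.0725). Its 158 CPM belonged to treated library 9, and the other 7 treated libraries held 202 CPM or more. Sar1a had a log2 fold change of -0.02 ± 0.05. Per length, Sar1b was the most abundant COPII transcript in untreated livers at 146 ± 13.2 RPKM, above Sar1a at 34.4 ± 1.82 RPKM, and Sec24b was the lowest at 6.46 ± 0.667 RPKM. In CPM, Sar1b and Sar1a were closer, at 183 and 129, since their annotated exons span 1255 and 3740 bases. In the outer cage, Sec31a rose (0.25 ± 0.07, log2; edgeR adjusted p = 0.0238), while Sec13, which also serves nuclear pores, had 0.17 ± 0.08 and did not pass. The SNARE Sec22b had 0.11 ± 0.07.

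In the COPI coat, 1 of 7 genes rose and the median was 0.10, the lowest of the 5 roles. With 3 surrogate variables the COPI median was 0.07, close to the 0.08 of COPII, and the other roles had 0.11 to 0.13. Arcn1, the delta subunit, ran from 164 to 237 CPM (median 216) in untreated and from 222 to 278 CPM (median 240) in treated livers. Arcn1 had a log2 fold change of 0.22 ± 0.07 (edgeR adjusted p = 0.0402) and no longer passed without untreated libraries 3 and 9 (0.17). Copa and Copb1 had 0.10 ± 0.06 and 0.14 ± 0.06, and Copg1, Cope and Copz1 had 0.13, 0.09 and 0.06. Copb2, the beta-prime subunit, had 141 to 176 CPM in 8 untreated libraries, 247 CPM in library 3, and 148 to 191 CPM in the treated ones. Its log2 fold change was -0.01 ± 0.10. With scaling to total counts only, the COPI median turned to -0.07, and 1 of the 7 genes, Arcn1, stayed positive.

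The COPI and COPII coats can be set against each other within a library, free of scaling. The mean log2 level of COPII genes minus that of COPI genes was -0.60 to -0.51 in untreated libraries other than 3, and -1.13 in library 3. It was -0.54 to -0.42 in treated libraries other than 9, and -0.62 in library 9. The ranges overlapped. With all libraries the means were -0.627 ± 0.192 (SD, n = 9) in untreated and -0.5 ± 0.0612 (n = 8) in treated livers. They were -0.571 ± 0.0358 (SD, n = 7) without untreated libraries 3 and 9 and -0.483 ± 0.0403 (n = 7) without treated library 9. Treated library 9 was set aside for its likeness to untreated libraries, which narrowed the treated spread. The other roles were set against COPI in the same way, as deviations from the untreated mean with all libraries. The medians in untreated and treated libraries were -0.02 and 0.11 for the translocon, and -0.01 and 0.015 for the signal peptidase. For cargo receptors they were 0.04 and -0.015. None of these differences was tested, since the same comparison chose the genes.

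**Figure D4:**
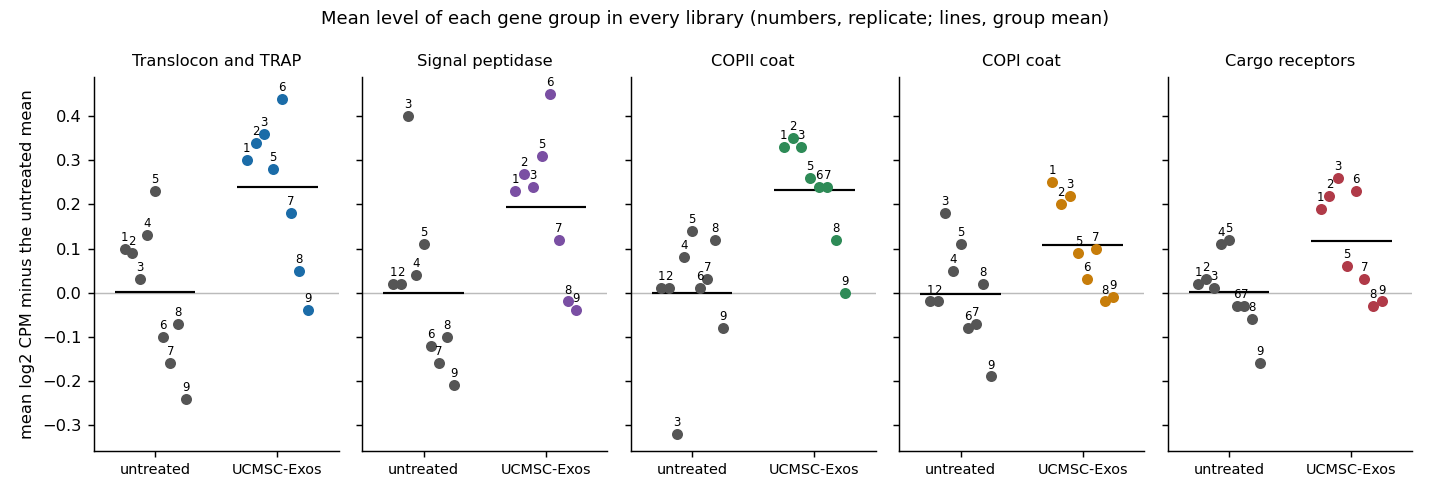
Mean over the genes of each role of log2 CPM minus the untreated mean (vertical axis) in every library, numbered by replicate, with lines at the group means. Untreated library 3 is lowest for COPII (-0.32) and highest among untreated for signal peptidase (0.40), and treated library 9 lies between -0.04 and 0.00 in all 5 panels.

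Of the 13 cargo receptors, 5 rose and the median was 0.21. The lectins Lman1 and Lman2 bind glycoproteins that carry mannose-rich glycans. Lman1, the receptor of blood coagulation factors V and VIII, had 240 to 330 CPM (median 288) in untreated and 259 to 436 CPM (median 373) in treated livers. Only treated library 9 (259 CPM) and library 8 (324 CPM) lay inside the untreated range. The log2 fold change was 0.38 ± 0.10 (edgeR adjusted p = 0.0125). Lman2 had 218 to 305 CPM (median 242) in untreated and 222 to 387 CPM (median 344) in treated livers, a log2 fold change of 0.40 ± 0.11 (edgeR adjusted p = 0.0144).

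Mcfd2 codes for the soluble partner of LMAN1 in that receptor. It ran from 209 to 296 CPM in 8 untreated libraries with 419 CPM in library 3, and from 226 to 323 CPM in treated livers. Its log2 fold change was 0.03 ± 0.12 (edgeR adjusted p = 0.873), and 0.08 ± 0.09 without untreated libraries 3 and 9. Per length, Mcfd2 was the most abundant receptor transcript in untreated livers, at 98.7 ± 21.3 RPKM. Surf4, a receptor known for lipoproteins, rose (0.22 ± 0.08, log2; edgeR adjusted p = 0.0429). It was next in level at 85.1 ± 7.16 RPKM, and its spread overlapped that of Mcfd2.

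**Figure D5:**
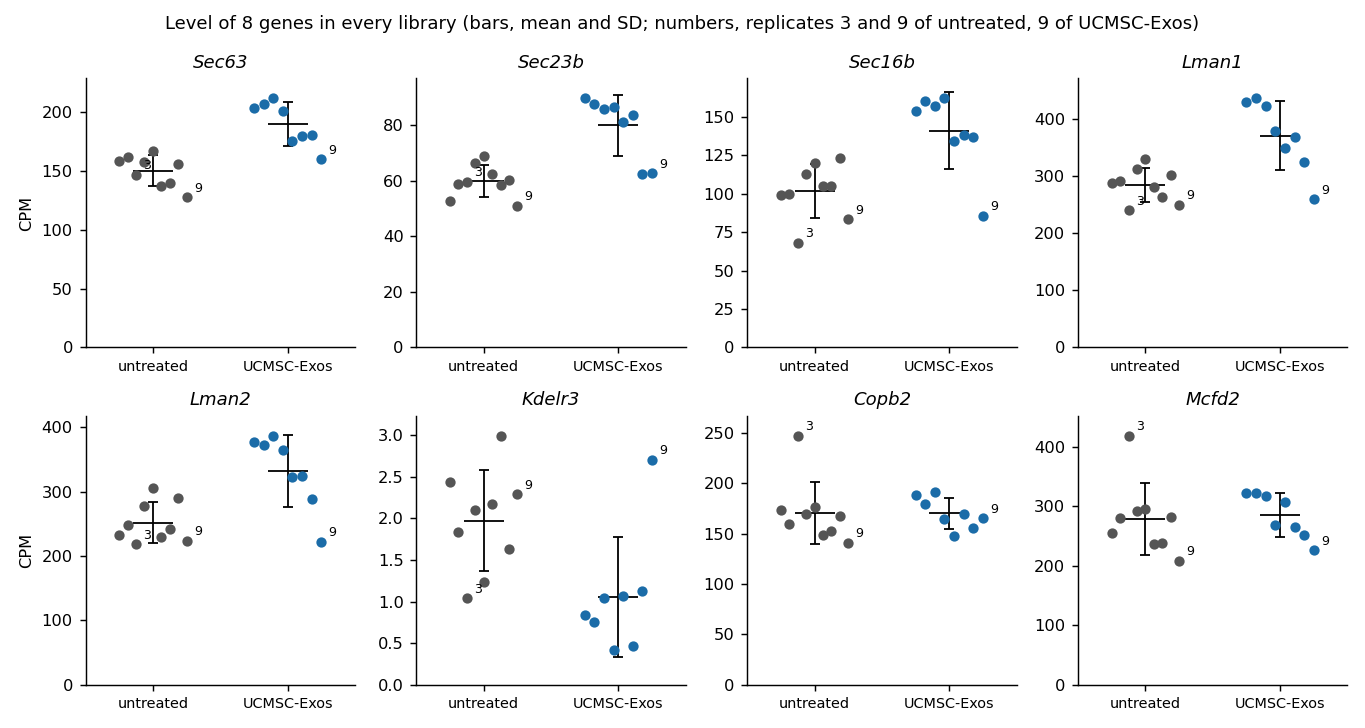
CPM (vertical axes, each from 0) of 8 genes in every library, with the mean and SD of each group; untreated libraries 3 and 9 and treated library 9 are numbered. Sec63, Sec23b, Sec16b, Lman1 and Lman2 are higher in most treated libraries, Kdelr3 is at 1.13 CPM or below in all treated libraries but 9, and Copb2 and Mcfd2 overlap, with 247 and 419 CPM in untreated library 3.

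The Tmed proteins, also called p24 proteins, cycle between both coats and help sort GPI-anchored cargo. Of the 6, Tmed7 rose (0.28 ± 0.09 on the log2 scale, edgeR adjusted p = 0.0329). It ran from 108 to 147 CPM in untreated and from 113 to 174 CPM in treated livers. Tmed2, Tmed3, Tmed5, Tmed9 and Tmed10 had log2 fold changes of 0.05 to 0.22 and did not pass.

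KDEL receptors, coded by 3 genes, return escaped chaperones to the ER. Kdelr2 ran from 64.9 to 88.5 CPM (median 75.4) in untreated and from 74.6 to 113 CPM (median 95.6) in treated livers (0.30 ± 0.08 on the log2 scale, edgeR adjusted p = 0.016). Kdelr1 had 0.21 ± 0.09 (edgeR adjusted p = 0.112). Kdelr3, at 1.40 ± 0.43 RPKM the lowest of all 48 genes, had 1.04 to 2.99 CPM (median 2.1) in untreated livers. In treated livers it had 0.413 to 1.13 CPM in 7 libraries and 2.70 CPM in library 9. Its log2 fold change was -0.89 ± 0.32 (edgeR adjusted p = 0.052), with -0.95 (edgeR adjusted p = 0.0495) without untreated libraries 3 and 9 and -1.27 (edgeR adjusted p = 0.000892) without treated library 9. It was -0.51 with 3 surrogate variables (edgeR adjusted p = 0.175) and -1.4 with limma's voom.

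The libraries that stand apart did so for members of each role. In untreated library 3, 14 of the 48 genes lay above all 7 other untreated libraries (library 9 left aside) and 18 lay below them all. Sec24d was at 0.489 and Sec24a at 0.538 of the median of those 7. The acinar transcripts move with these values, and their part in them was not tested. In UCMSC-Exos library 9 the members' mean log2 level differed from the untreated mean by -0.02, against 0.03 to 0.29 in the other treated libraries. That library also had a hepatocyte marker sum of 41934 CPM, the lowest of the treated libraries, and a cholangiocyte marker sum of 607 CPM, the highest of all. Its sum of B and plasma cell markers was 93.0 CPM, above the untreated maximum of 31.6 CPM. That of T and NK cell markers was 32.4 CPM, above the untreated maximum of 17.7 CPM.

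Markers of other cells moved with treatment as well. Markers of B and plasma cells, which secrete antibody through the same pathway, summed to 15.9 to 31.6 CPM in untreated and 73.7 to 147 CPM in treated libraries. Of their 9 tested genes, 4 rose (Igha, Jchain, Igkc and Pou2af1) and 1 fell (Prdm1, which other cells also express), and Igha, an antibody heavy chain, went from 2.1 ± 0.638 to 45.5 ± 14.2 CPM. Adipocyte markers summed to 367 to 1210 CPM in untreated and 757 to 2290 CPM in treated libraries, most of it Car3, carbonic anhydrase, which hepatocytes also express. Stellate cell markers summed to 678 to 1928 and 437 to 1750 CPM, the 1750 CPM being treated library 9. Of the 6, 2 fell, Dcn and Des, the second of which muscle also expresses. Without untreated libraries 3 and 9, Dcn still fell (-0.71 on the log2 scale, edgeR adjusted p = 0.0212). Des then did not pass (-0.43, edgeR adjusted p = 0.198). Erythroid markers summed to 71.5 to 199 CPM in untreated and 141 to 344 CPM in treated libraries, and 3 of 5 rose, with Alas2 at the highest level (1.06 ± 0.14 on the log2 scale). Of 6 T and NK cell markers, 2 rose (Cd4 and Cd2), with sums of 10.6 to 17.7 and 14.9 to 32.4 CPM. Of 6 macrophage markers 1 fell (Ctss, -0.92 ± 0.15), and of 6 endothelial markers 1 rose (Stab2, 0.24 ± 0.08). Of 7 cholangiocyte markers, 0 passed in edgeR and 0 had an unadjusted p under 0.05. No marker of these lists was at 0 in every library. The part of these cells in the members' values was not tested.

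Other genes of ER entry and ER-Golgi transport that are not on the list of 48 were counted in the same way. Of 96 tested, 13 rose (13.5%) and 1 fell, and their median was 0.11. That share lay near the 9.73% of all genes and below the 23.2% of genes of at least 50 CPM, so it is no result about these genes. Without treated library 9, 30 rose (31.2%), against 15.1% of all genes. Without untreated libraries 3 and 9, 18 rose (18.8%), against 10.8% of all genes. With 3 surrogate variables 4 rose (4.17%), against 4.27%. The share among genes of at least 50 CPM was not counted in those fits. In the signal recognition particle and its receptor, which bring ribosomes to the channel, 2 of 10 rose, Srp72 (0.38 ± 0.10) and Srp68 (0.24 ± 0.07). In the oligosaccharyltransferase, which adds glycans to entering proteins, 1 of 12 rose (Magt1, 0.36 ± 0.12). In the tail-anchor and EMC insertion routes, 1 of 13 rose (Emc7, 0.17 ± 0.06). Of 14 further coat and receptor genes, 3 rose, namely Mia3 (0.39 ± 0.08), which helps load large cargo such as collagen, Tfg (0.32 ± 0.08) and Tram2 (0.28 ± 0.09). Emc7 and Tram2 did not pass without untreated libraries 3 and 9 (edgeR adjusted p = 0.0629 and 0.0535).

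Among regulators of ARF and COPI, 1 of 9 rose, Gbf1 (0.36 ± 0.09), the exchange factor that starts the COPI coat. Of 25 tethers and SNAREs, 4 rose and 1 fell. Stx5a, the Golgi SNARE that receives ER vesicles, went from 51.8 ± 7.42 CPM (SD, n = 9) to 76.5 ± 11.4 CPM (n = 8), a log2 fold change of 0.56 ± 0.10 (edgeR adjusted p = 0.00133). Its partner Scfd1 (0.33 ± 0.07), the Golgi stacking protein gene Gorasp2 (0.36 ± 0.10) and the tether Uso1 (0.26 ± 0.08) were the others. Trappc4, of a tethering complex, fell (-0.35 ± 0.10). Of 13 genes of the intermediate compartment, 1 rose (Ergic2, 0.28 ± 0.07).

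Among 11 regulators of the unfolded protein response and its relatives, 4 rose (36.4%) and 1 fell. Of all genes tested 9.73% rose, and of genes of at least 50 CPM 23.2%. With scaling to total counts only, 1 of the 11 rose, against 4.54% of all genes. With 3 surrogate variables 3 rose (Creb3l2, Creb3l3 and Eif2ak3), against 4.27%. In both of these fits 0 fell. Creb3l2, a membrane-bound factor related to ATF6, went from 43.8 ± 2.32 to 60.2 ± 5.63 CPM (0.46 ± 0.06 on the log2 scale, edgeR adjusted p = 6.4e-05). Xbp1 rose by 0.29 ± 0.07 (edgeR adjusted p = 0.012), and just missed the threshold with 3 surrogate variables (0.22, edgeR adjusted p = 0.052). The counts are per gene, so the spliced form of Xbp1 was not measured. Creb3l3, a factor of liver and gut, rose by 0.27 ± 0.09 and Ern1, which codes for the ER stress sensor that splices Xbp1, by 0.32 ± 0.11. Creb3l1, a factor of secretory stromal cells, fell from a low mean of 7.33 CPM to 4.68 CPM (-0.64 ± 0.22, edgeR adjusted p = 0.0491). It did not pass with 3 surrogate variables (edgeR adjusted p = 0.201).

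A list of 14 genes held known cargoes of the route and the lipoprotein assembly factors Mttp and Tm6sf2, which stay in the ER. Of these, 9 rose and the median log2 fold change was 0.51, but 5 of the 9 are the Serpina1 genes. The largest was Serpina1e, an alpha-1-antitrypsin gene, from 235 ± 104 to 3028 ± 1511 CPM (3.69 ± 0.42 on the log2 scale, edgeR adjusted p = 2.94e-05). The Serpina1 genes are near-identical copies and do not count as separate cargoes. Multi-mapping reads were not counted, so the levels of these genes rest only on reads placed at a single copy. Serpina1a (0.87 ± 0.15) and Serpina1c (1.37 ± 0.24) rose too. Alb rose by 0.51 ± 0.16 (edgeR adjusted p = 0.0354). F5, coagulation factor V and a cargo of LMAN1, rose by 0.52 ± 0.13, while F8, the other cargo, had 0.07 ± 0.13. With scaling to total counts only, 7 of these 14 genes rose, and of the 96 transport genes 2 rose (Mia3 and Stx5a) and 6 fell.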

How the data were processed

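RNA-seq counts of mouse liver were analysed from 17 libraries, 9 untreated and 8 UCMSC-Exos. The deposited table holds raw read counts per gene. Per the file headers, the authors counted with featureCounts 2.1.1 over exons of GENCODE vM25, with no strand option and no multi-mapping reads; the deposited exon length per gene, in bases, gave RPKM. The submitters' processing notes name fastp 1.3.3, HISAT2 2.2.1, Subread 2.0.2 and mm10. In the table, 1 per-sample column matched no sample and was not used. Symbols were matched to 55141 of 55401 gene IDs. Without strand, reads of overlapping genes cannot be told apart: 15 members overlap another gene's exons, by at most 16.3% of their exon bases (Spcs1).

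Genes passing filterByExpr (minimum count 10) were fitted with edgeR 4.0.16 (R 4.3.3), with TMM scaling, robust quasi-likelihood and no covariate; the test is two-sided, the threshold 0.05, and the SE is the log2 fold change divided by the square root of F. The biological coefficient of variation was 0.29. Mean log2 levels used a prior count of 2. The fit was tested on simulated data. Alternatives used DESeq2 1.42.0, limma 3.58.1 and sva 3.50.0. The members and lists were chosen with earlier results of these data known. Any member could be named; of other lists, up to 3 genes of smallest p that passed were named, or the 1 of smallest p, and of marker lists the gene of highest CPM. Promoters were to be chosen by the longer ER stress element, which no member window held; those with the shorter core were printed in its place. F5, F8, Mttp, Tm6sf2, Alb, Uso1, Trappc4, Ern1, Creb3l1 and the marker genes beyond the highest of each list were named after their values were seen. Some results on cargo genes are not reported here.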

Additional observations from a re-analysis of the deposited data

Results flagged for a closer look

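In 19 of 96 group values (48 genes in 2 groups), the highest or lowest library stood further from its nearest neighbour than Dixon's test allows at 95%; chance flags about 1 in 20 groups, and values within a library are not independent. Of the 19, 12 belong to untreated library 3, which held pancreatic acinar transcripts. There, 5 genes were the highest of their group: Sec62 at 172 CPM, Sec11a at 108 CPM, Copb2 at 247 CPM, Mcfd2 at 419 CPM and Tmed3 at 36.9 CPM. The other 7 were the lowest: Sec13 at 37.8 CPM, Sec16a at 116 CPM, Sec24a at 63.0 CPM, Sec24b at 28.6 CPM, Sec24d at 66.8 CPM, Sec31a at 143 CPM and Arcn1 at 164 CPM. In treated library 9, Sec62 (128 CPM), Sar1b (158 CPM) and Sec16b (85.7 CPM) were the lowest of the treated libraries, while Sec24b (46.1 CPM) and Kdelr3 (2.70 CPM) were the highest. In treated library 6, the small channel subunits Sec61b (75.4 CPM) and Sec61g (43.9 CPM) were the highest.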

How the results depend on the processing

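Over 27 alternatives, 1259 of 1296 member log2 fold changes stayed within 1 SD of the reported value, 37 moved further and 0 of the genes that rose changed sign. The SD is that of the gene's log2 level over untreated libraries, library 3 included, and 17 alternatives left out 1 library. This measure is loose. With 3 surrogate variables, Sec61a1 at 0.18 in place of 0.32 and Sec24a at 0.13 in place of 0.39 stayed within it. With scaling to total counts only (chosen after seeing the data), 5 members rose and 1 fell; the medians were 0.04 for all members, 0.06 for the translocon, 0.06 for COPII, 0.03 for cargo receptors and -0.07 for COPI, which reversed, and 10 genes on the other lists rose in place of 26. With 3 surrogate variables, 3 members rose, the medians were 0.10 for all members, 0.08 for COPII and 0.11 for cargo receptors, and 12 other genes rose. In that fit 4.27% of all genes rose. Limma's voom with quality weights called 35 members higher and 2 lower (Kdelr3 and Sec24b), and 61 other genes higher. It also called 22.1% of all genes higher and 25.5% lower. Without the filter on low counts 11 members rose, as did 3.89% of all genes. Kdelr3 was the 1 member called lower by DESeq2, with at least 1 CPM in 8 libraries, and without untreated libraries 3 and 9 together. DESeq2 called 26 members and 12.3% of all genes higher. Leaving out 1 library at a time, 9 to 29 members rose, 0 to 1 fell, and 18 to 44 of the genes on other lists rose. The share of all genes that rose ran from 6.68% to 15.1% in those fits. The cause of these shifts was not tested.

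The replicate numbers that both groups share do not pair the samples: correlations of same-numbered libraries ran from -0.171 to 0.238, 2 of 8 pairs were above 0.1, and 1 untreated library correlated best with its own number. With the replicate block, 15 members were called higher (14 of the 19) and 1 lower, and the median was 0.22. That fit called 8.15% of all genes higher. Depth limits Kdelr3, at about 1 to 2 CPM, more than the other members.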
